A study of Rattus norvegicus with 65 samples.

Results

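The hypothalamic transcriptome of lean rats was compared with that of saline-treated obese rats of the same experimental period. The comparison took in every library labelled Lean or Saline in batch A, which was 6 lean and 3 saline libraries of 65 in the series, 1 library per animal. All 9 came from male Wistar rats that were fasted before the brain was removed, and the hypothalamus was dissected from the frozen brain. Saline-treated animals had been made obese with a high-fat diet, were then given isotonic saline by osmotic minipump and by subcutaneous injection in place of gut hormones, and ate from a high-fat and a low-fat diet as they wished. Sham-operated obese rats of batch A (5 libraries), which had the same choice of food but surgery in place of saline, were a second obese control group.

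What makes the lean group lean is known only from its label. The study's methods describe no lean arm, and its text names a low-fat-diet-only group that was taken here to be these animals. The body weight of that group at the start of the interventions lay within the range of the obese groups. The files hold no body weight, so how far lean and saline rats differed in fatness cannot be read from them.

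The hypothalamus holds the neurons that read the body's energy stores. In the arcuate nucleus, a first set of neurons makes NPY and AgRP, which drive feeding, and another makes the POMC precursor of melanocortin peptides and CART, which restrain it. Leptin from fat and insulin from the pancreas act on both sets, and feeding a high-fat diet is known to blunt these signals and to be followed by gliosis in the region. Neighbouring nuclei make orexin and melanin-concentrating hormone, vasopressin and oxytocin, and the releasing hormones of the pituitary axes.

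Total counts on genes ran from 27064139 to 33299946 in the 9 libraries. The groups did not separate as wholes. The root mean square distance between libraries on the log2 scale had a median of 0.473 over the 18 pairs of a lean with a saline library, 0.519 over the 15 pairs within the lean group and 0.415 over the 3 pairs within the saline group. The libraries farthest from the other 8 were Lean 2, with a mean distance of 0.629, and Lean 6, with 0.623.

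The label hypothalamus was checked against 12 genes that define the region, among them the genes of vasopressin, oxytocin, orexin, POMC and the transcription factors Nkx2-1 and Sim1. Their summed level, in CPM (counts scaled to the size of the library), was 712, 12.1, 2255, 1013, 45.7 and 2166 in Lean 1 to Lean 6 and 1827, 1828 and 149 in Saline 1 to Saline 3. It was therefore low in Lean 2, Lean 5 and Saline 3, and the groups overlapped over their whole range. A list of 27 hypothalamic transcription factors did not share this order. Its sum was lowest in Lean 2 (138 CPM), but Lean 5 (326 CPM) and Saline 3 (318 CPM) held the highest sums of their groups. Of the 12 genes, 7 were under 1 CPM in Lean 2, 5 in Lean 5 and 4 in Saline 3, against 0 or 1 in each of the other 6 libraries. Genes of the striatum, the input nucleus of the basal ganglia, summed to between 431 and 2008 CPM in the lean libraries and between 314 and 495 in the saline libraries. Genes of cortex and hippocampus summed to 1229 CPM in Lean 2 and to between 97.2 and 235 in the other 5 lean libraries, against 63.5 to 102 in the saline libraries. In such bulk tissue, fewer cells of a type and less RNA per cell cannot be told apart. Some results below are also given without Lean 2, Lean 5 and Saline 3, but not all that rest on these libraries. Leaving these libraries out together was not planned beforehand, and it follows the list of 12 genes only.

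**Figure D1:**
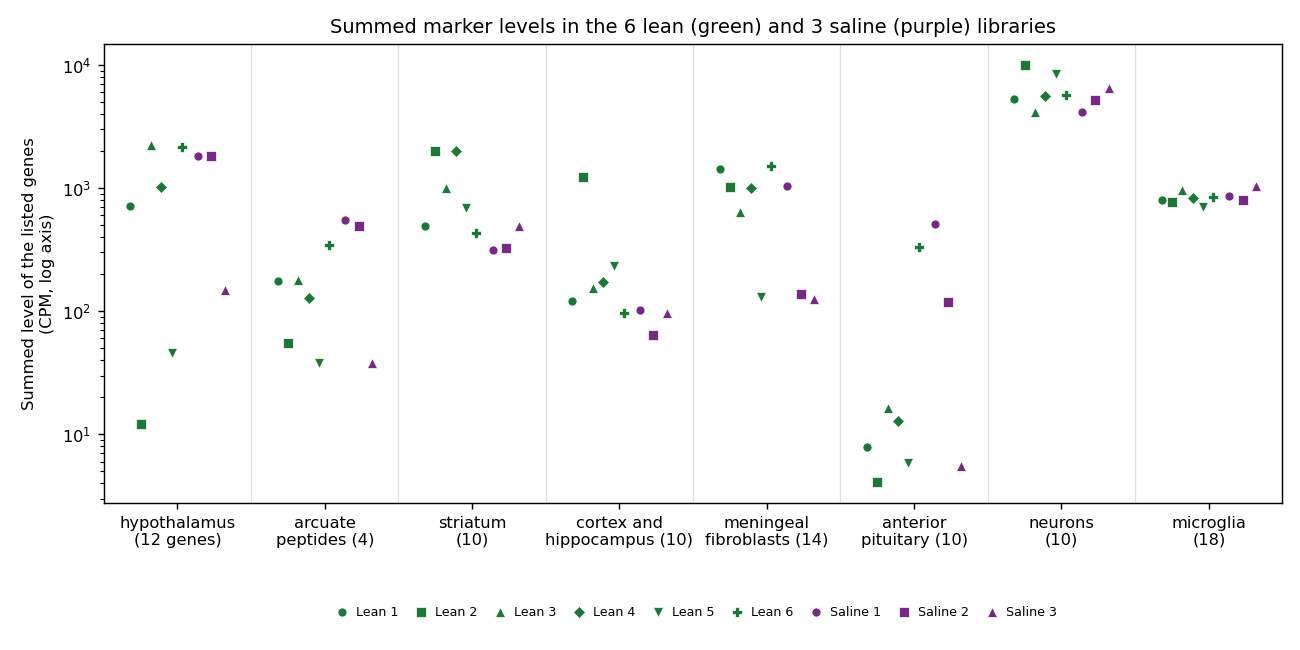
Summed level (CPM, log axis) of 8 lists of marker genes in each lean (green) and saline (purple) library, with the number of genes listed in parentheses and 1 symbol per library. The hypothalamus list spans 12.1 to 2255 CPM within the lean group and 149 to 1828 within the saline group, while the neuron and microglia lists stay within a narrow band.

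No gene differed between lean and saline-treated animals by edgeR's quasi-likelihood test at the study's thresholds, which ask for a Benjamini-Hochberg adjusted p under 0.05 together with more than a 2-fold difference. Of 21775 genes tested, 0 (0%) were called, 0 had an adjusted p under 0.05, and the smallest adjusted p was 1. Unadjusted p was under 0.05 in 483 genes (2.22%), of which 250 (1.15%) were higher and 233 (1.07%) were lower in the lean group. DESeq2, run without the fold-change shrinkage that the study applied, called 1 gene, and limma-voom with sample weights called 15. The gene called by DESeq2, Hoxd4, was between 0 and 0.118 CPM in the lean libraries and at 0 in the saline libraries. The 6 lean values lay above all 3 saline values in 167 genes (0.767%) and below all of them in 193 (0.886%).

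The data bounded the difference for most genes of moderate abundance. The 95% interval of the log2 fold change lay between -1 and 1 in 13545 genes (62.2%), and in 13141 (77.3%) of the 17000 genes whose mean was over 1 CPM in both groups. The fold change itself exceeded 1 on the log2 scale in 1212 genes, of which 492 had a mean over 1 CPM in either group. The median log2 fold change of all genes was 0.01.

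The genes with the smallest p on the side higher in lean were led by Apold1, a gene of activated endothelial cells (Rnor_6.0, chr4:168752142-168755024, plus strand). Its level was between 13.2 and 128 CPM with a median of 43.0 in the lean libraries and was 9.52, 8.11 and 7.95 CPM in the saline libraries. All 6 lean animals lay above all 3 saline animals, with a log2 fold change of 2.52 ± 0.68 (SE). The unadjusted p of 0.000681 by edgeR's quasi-likelihood test did not survive correction (adjusted p = 1). Inhba, which encodes the subunit of activin A, was between 2.42 and 7.23 CPM in the lean and between 1.59 and 1.74 CPM in the saline libraries, again without overlap, with a log2 fold change of 1.24 ± 0.37. Vill, a relative of the actin-binding protein villin, was between 1.26 and 5.94 CPM against 0.324 to 0.476 CPM (log2 fold change 3.23 ± 0.97). Clcf1, a cytokine of the IL-6 family, was between 1.26 and 13.5 CPM against 0.227 to 0.698 CPM (log2 fold change 3.61 ± 1.22). Both also separated the groups, but with a spread of several fold among lean animals.

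Another 4 genes of that side were immediate early genes (Fosb, Egr1, Nr4a1 and Dusp1), described below. Dok3, an adaptor protein of immune cells, was between 2.03 and 6.58 CPM in the lean and between 1.62 and 2.07 CPM in the saline libraries, so that 1 lean animal overlapped the saline range. Cyp2d5, a cytochrome P450 with close paralogs between which reads could be split, was between 1.04 and 1.29 CPM against 0.227 to 0.850 CPM. Tspan10, a tetraspanin, and Ms4a7, a membrane protein of macrophages, had 0 counts in all 3 saline libraries. Against a floor of 3 counts per library, taken at its highest among the saline libraries (0.111 CPM in Saline 3), the lean mean was at least 4.54-fold higher for Tspan10 and at least 2.30-fold higher for Ms4a7. The lean values ran down to 0.118 CPM for Tspan10 and to 0.0919 CPM for Ms4a7, the latter below that floor. The bound for Tspan10 was 2.69-fold without Lean 6, which held 1.53 CPM. For Ms4a7 the bound was 1.67-fold without Lean 2, which held 0.608 CPM. These 12 genes were chosen by their p and none passed the test, so they are a description of the extremes. In a fit of all 65 libraries with a batch term, the log2 fold change was 0.96 for Apold1, 1.67 for Vill and 1.54 for Clcf1.

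On the side lower in lean, Pgm1 and Zfp512 differed by a small amount but varied little between the animals of a group. Pgm1 (chr5:118743632-118803055, plus strand) encodes phosphoglucomutase, which links glycogen and glucose metabolism. Its level was 82.6, 70.0, 74.4, 81.5, 82.97 and 82.9 CPM in Lean 1 to Lean 6 and 92.5, 104 and 99.9 CPM in Saline 1 to Saline 3. The groups did not overlap, and the log2 fold change was -0.32 ± 0.09 (SE), with an unadjusted p of 0.000731 and an adjusted p of 1 by edgeR's quasi-likelihood test. The zinc finger gene Zfp512 (chr6:26284749-26314841, minus strand) was between 50.8 and 60.7 CPM in the lean and between 69.8 and 72.7 CPM in the saline libraries, with a log2 fold change of -0.35 ± 0.09. The intervals of both, -0.49 to -0.14 and -0.54 to -0.16, lay inside the bound of 1 required for a call.

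Spint1, an inhibitor of serine proteases at epithelial surfaces, was between 8.07 and 19.8 CPM in the lean and between 21.8 and 34.8 CPM in the saline libraries (log2 fold change -1.16 ± 0.38). Grhl2, a transcription factor of epithelia, had the smallest p of this side (0.000386 by edgeR's quasi-likelihood test, adjusted p = 1). Its level was between 0.118 and 0.398 CPM in the lean and between 0.517 and 1.40 CPM in the saline libraries, with a log2 fold change of -2.17 ± 0.55. Neither gene's groups overlapped, but Grhl2 did not exceed 1.40 CPM in any of the 9 libraries. Cdh17, a cadherin of gut epithelium, was between 0 and 0.332 CPM in the lean and was 1.49, 1.56 and 0.296 CPM in the saline libraries, so that Saline 3 lay within the lean range. Qsox1, an enzyme that forms disulfide bonds, was between 28.8 and 44.3 CPM against 43.7 to 52.7 CPM, and Kctd14 was between 3.95 and 6.31 CPM against 5.21 to 11.3 CPM. Apoa4, an apolipoprotein of the gut, was 8.02 CPM in Saline 1 and at most 0.521 CPM in the other 8 libraries, and its log2 fold change went from -4.43 to -0.64 without that animal. The other 4 genes of this side, Olr1193, Utf1, Sftpd and Fgf17, did not exceed 1 CPM in any of the 9 libraries and carry no fold change here.

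Immediate early genes were the list with the most members at an unadjusted p under 0.05. Such genes are transcribed within minutes after a neuron is excited or a cell is stimulated, and this needs no new protein synthesis. Their products include transcription factors such as FOS and EGR1 and regulators such as DUSP1. All 17 listed genes had a positive log2 fold change of lean against saline, with a median of 1.49 beside 0.01 over all genes. Unadjusted p was under 0.05 in 11 of the 17, all higher in lean, beside 1.15% of all genes, and 0 of 17 were called (adjusted p = 1 by edgeR's quasi-likelihood test). Every lean value lay above every saline value in 4 of the 17 genes, beside 0.767% of all genes. The list had been tested on these libraries before, so its direction is no independent evidence.

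Fosb, the partner of JUN proteins in AP-1 (chr1:80214691-80221417, minus strand), was 3.82, 30.9, 4.55, 6.44, 25.3 and 10.4 CPM in Lean 1 to Lean 6 and 3.20, 2.498 and 2.96 CPM in Saline 1 to Saline 3. Egr1 (chr18:27657903-27660101, plus strand), a zinc finger factor induced by neuronal activity, was 49.8, 186, 27.7, 66.8, 68.3 and 34.1 CPM against 24.4, 17.1 and 18.8 CPM. In both genes every lean animal lay above every saline animal, with Lean 2 highest and the lowest lean value close to the highest saline value. The log2 fold changes were 2.23 ± 0.73 for Fosb and 1.84 ± 0.62 for Egr1. Arc, a synaptic protein made after strong input, was between 19.95 and 411 CPM with a median of 53.4 in the lean and between 13.5 and 18.1 CPM in the saline libraries. Egr3, a relative of Egr1, was between 12.5 and 128 CPM against 3.55 to 12.5 CPM, so that the groups only just separated.

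The nuclear receptor gene Nr4a1 (chr7:142899358-142920216, plus strand) was between 15.5 and 213 CPM with a median of 49.4 in the lean and was 17.2, 12.04 and 11.5 CPM in the saline libraries (log2 fold change 2.41 ± 0.83). Dusp1 (chr10:16970642-16973425, plus strand), a phosphatase that switches off MAP kinases, was between 25.2 and 189 CPM with a median of 53.2 against 27.2, 19.2 and 21.1 CPM (log2 fold change 1.67 ± 0.58). In both genes only Lean 3 fell within the saline range. Fos was between 16.9 and 101 CPM in the lean and between 9.76 and 19.5 CPM in the saline libraries, Junb between 36.1 and 269 against 25.9 to 41.3 CPM, and Btg2, an inhibitor of cell division, between 14.5 and 115 against 12.5 to 23.5 CPM. The saline range took in 1 lean animal for Fos and Junb and 2 for Btg2. The unadjusted p was above 0.05 for Npas4, Jun, Ier2, Fosl2, Nr4a2 and Nr4a3.

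The level of the whole list differed between lean animals far more than between saline animals. Its 17 genes summed to 434, 2079.8, 275, 465, 604 and 624 CPM in Lean 1 to Lean 6 and to 274, 245 and 223 CPM in Saline 1 to Saline 3. Lean 3 was level with Saline 1, and Lean 2 was more than 3 times any other animal. The number of the 17 genes that lay above all 3 saline values was 12, 17, 6, 13, 16 and 16 in Lean 1 to Lean 6. Without Lean 2 the median log2 fold change was 0.89 and 5 genes had an unadjusted p under 0.05, and without Lean 2, Lean 5 and Saline 3 together these values were 0.79 and 0. Lean 2 also had the highest cortex and hippocampus level, and with the scores of the hypothalamus, striatum and cortex lists as covariates the median was 0.80 with 5 such genes. In a fit of all 65 libraries with a batch term the median was 0.56 with 1 such gene.

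**Figure D2:**
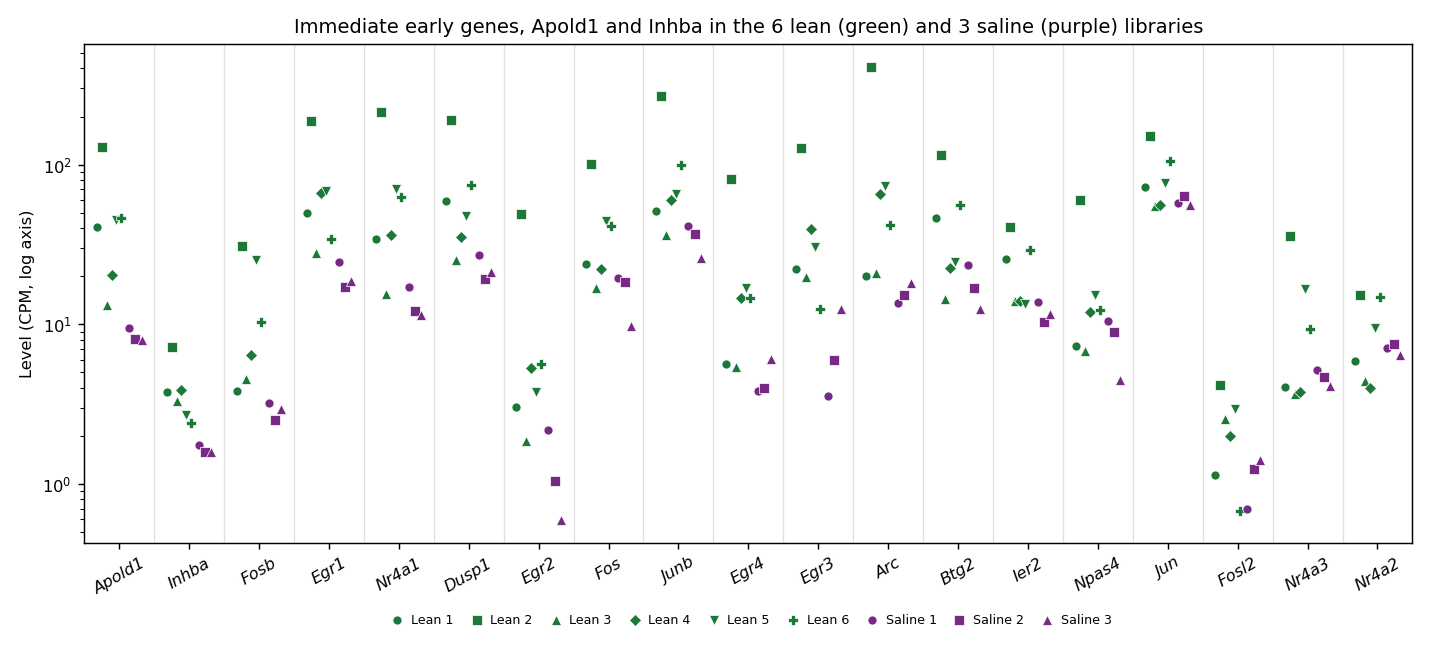
Level (CPM, log axis) of Apold1, Inhba and the 17 immediate early genes in each lean (green) and saline (purple) library, 1 symbol per library. Lean 2 (square) holds the highest value of every gene plotted, and Lean 3 (triangle) lies at or near the saline values of most.

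The members of the list shared a direction, which is no independent evidence because the list had been tested on these libraries before. The promoters of 3 of them are shown. These 3 are among the richest of the list in the motif described here, so they are not typical of it. A known route to their induction runs through CREB, a factor that binds the cyclic AMP response element TGACGTCA and, less tightly, its core. The 250 bases before the start of the gene are given from RefSeq (build GRCr8, which differs from the build of the counts), 5′ to 3′ on the gene's strand, with every core (TGACG or CGTCA, both strands, overlapping matches counted) in capitals. Nr4a1 lies on the plus strand (chr7:134259888-134260137), Dusp1 on the plus strand (chr10:17184603-17184852) and Btg2 on the minus strand (chr13:48087691-48087940).
Nr4a1: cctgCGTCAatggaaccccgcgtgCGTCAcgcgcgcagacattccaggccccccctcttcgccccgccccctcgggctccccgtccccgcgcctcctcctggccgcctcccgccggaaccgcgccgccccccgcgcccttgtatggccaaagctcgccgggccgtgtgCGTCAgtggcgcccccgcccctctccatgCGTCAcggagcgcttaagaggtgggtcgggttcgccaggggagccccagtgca
Dusp1: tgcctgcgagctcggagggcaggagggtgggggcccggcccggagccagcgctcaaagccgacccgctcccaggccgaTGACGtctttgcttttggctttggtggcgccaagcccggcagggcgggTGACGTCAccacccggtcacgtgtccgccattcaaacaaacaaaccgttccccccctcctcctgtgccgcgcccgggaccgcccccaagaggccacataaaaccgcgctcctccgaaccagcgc
Btg2: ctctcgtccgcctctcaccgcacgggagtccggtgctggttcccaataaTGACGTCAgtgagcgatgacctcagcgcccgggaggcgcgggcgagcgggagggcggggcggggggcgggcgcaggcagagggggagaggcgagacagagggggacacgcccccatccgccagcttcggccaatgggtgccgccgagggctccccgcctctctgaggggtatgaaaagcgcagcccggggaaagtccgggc

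Nr4a1 had 4 cores and no full element, Dusp1 had 3 cores, of which 2 made up 1 full element, and Btg2 had 2 cores that made up 1 full element. The table held a promoter for 12 of the 17 genes. A core was present in 9 of these 12 (75.0%) and a full element in 3 (25.0%), beside 18.2% and 1.59% of all 33469 promoters of that length. Fosb, Fosl2 and Npas4 had none in this window, and Egr1 had 2 cores and no full element. Nr4a1 held the most cores of the list, and Dusp1 and Btg2 were among the 3 genes with a full element. The matches describe letters only, and binding was not measured.

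The 4 arcuate feeding peptides showed no called difference, and 3 of them varied as widely within each group as between the groups. Agrp (chr19:37525941-37584875, minus strand) was 0.863, 0.675, 0.564, 0.823, 0.379 and 3.58 CPM in Lean 1 to Lean 6 and 8.63, 10.5 and 0.554 CPM in Saline 1 to Saline 3. Saline 1 and Saline 2 were thus above every lean animal, while Saline 3 lay among the lowest values. The log2 fold change was -2.51 ± 1.17 (95% interval -4.89 to -0.13), with an unadjusted p of 0.0395 and an adjusted p of 1 by edgeR's quasi-likelihood test. Pomc (chr6:28382937-28388771, plus strand) was 84.8, 3.04, 70.9, 4.47, 2.87 and 123 CPM in the lean and 262, 231 and 3.81 CPM in the saline libraries (log2 fold change -1.78 ± 1.68, interval -5.19 to 1.63). Cartpt was 82.2, 13.4, 95.2, 105, 14.3 and 204 CPM against 263, 229.8 and 21.2 CPM (-1.002 ± 0.77). In all 3 genes Saline 1 and Saline 2 were the highest of the 9 animals, and Lean 6 was the highest lean animal.

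Npy, which is also made by neurons of the cortex and striatum, was between 7.40 and 37.9 CPM in the lean and between 12.4 and 19.3 CPM in the saline libraries, with its highest value in Lean 2 (log2 fold change 0.18 ± 0.63). The summed level of the 4 peptides was between 37.97 and 347 CPM with a median of 152 in the lean libraries and was 554, 489 and 37.99 CPM in the saline libraries. With the scores of the hypothalamus, striatum and cortex lists as covariates, the log2 fold change was -1.59 for Agrp and -0.24 for Pomc. Both genes are members of the hypothalamus list, so this fit adjusts each partly for itself and a smaller value is built in. Without Lean 2, Lean 5 and Saline 3 it was -2.71 for Agrp and -1.80 for Pomc, with unadjusted p of 0.0661 and 0.374 by edgeR's quasi-likelihood test.

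Of other genes with a place in the mediobasal hypothalamus, 4 are given here for their likeness to Agrp, a choice made after their values were seen. Tbx3, a transcription factor of arcuate neurons, was between 3.50 and 9.77 CPM in the lean and was 24.3, 18.01 and 3.55 CPM in the saline libraries (log2 fold change -1.44 ± 0.70). Bsx, a factor of AgRP neurons, was between 0 and 3.55 CPM against 5.71, 6.17 and 0 CPM, and Rax, a factor of tanycytes, was between 0 and 3.92 CPM against 7.93, 6.13 and 0 CPM. Galp, a peptide of the arcuate nucleus, was between 0 and 2.48 CPM against 7.99, 4.32 and 0.148 CPM. In each of these 4 genes Saline 1 and Saline 2 exceeded all lean animals, Lean 6 was the highest lean animal, and Saline 3 was within the lean range. The order was not general, since Lean 1 was the highest lean animal in Ghsr (9.63 CPM) and Mc3r (5.15 CPM). Of 27 listed hypothalamic transcription factors, 22 had a negative log2 fold change (median -0.44), 1 had an unadjusted p under 0.05 beside 2.22% of all genes, and 0 were called.

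**Figure D3:**
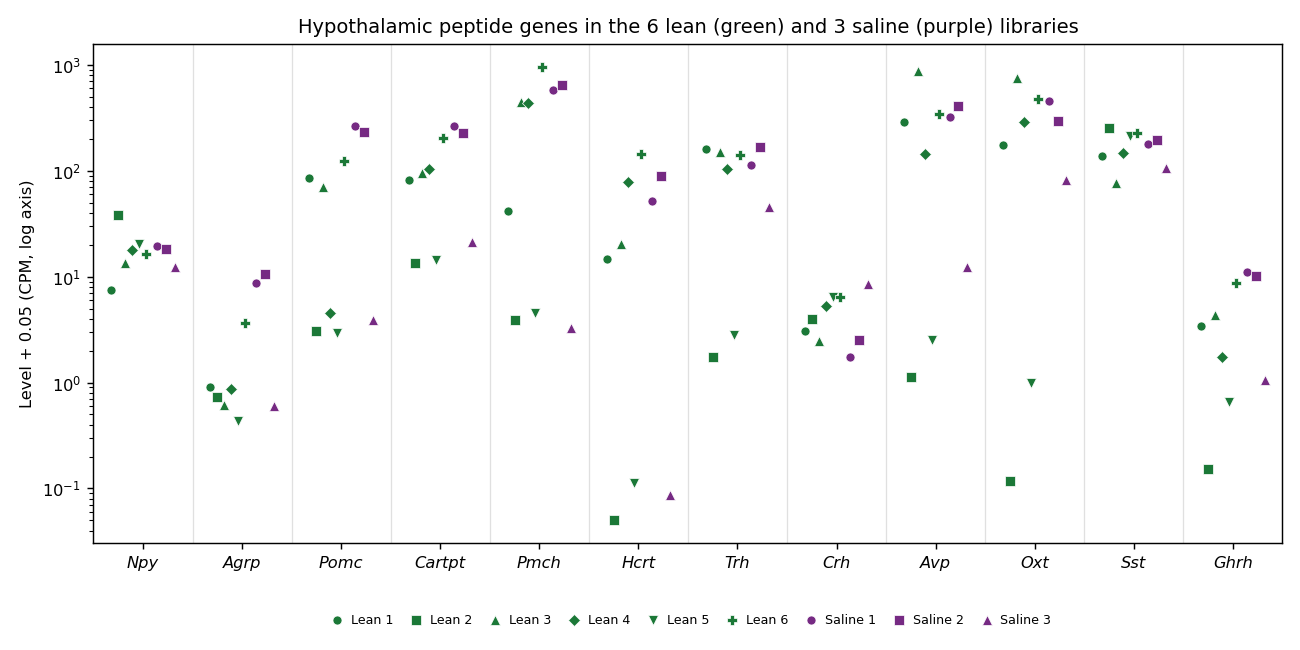
Level plus 0.05 (CPM, log axis) of 12 hypothalamic peptide genes in each lean (green) and saline (purple) library, 1 symbol per library. Agrp, Pomc and Cartpt are highest in Saline 1 and Saline 2, and Lean 2, Lean 5 and Saline 3 hold the lowest values of Pmch, Hcrt, Avp and Oxt.

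Several peptides of other hypothalamic nuclei varied widely within each group, and none was called between them. Pmch, which encodes melanin-concentrating hormone of the lateral hypothalamus, was 41.5, 3.85, 444, 440.3, 4.45 and 964 CPM in Lean 1 to Lean 6 and 585, 644 and 3.22 CPM in Saline 1 to Saline 3. Hcrt, which encodes orexin in neighbouring neurons, was between 0 and 143 CPM in the lean and between 0.0370 and 89.3 CPM in the saline libraries. Lean 2, Lean 5 and Saline 3 were lowest in both. Avp (vasopressin) was between 1.08 and 883 CPM against 12.4 to 414 CPM, and Oxt (oxytocin) between 0.0675 and 753 CPM against 82.6 to 452 CPM. The log2 fold changes were -0.38 ± 1.37 for Pmch, -0.15 ± 1.47 for Hcrt, 0.16 ± 1.503 for Avp and 0.03 ± 1.37 for Oxt, with intervals that reached beyond 2 on both sides.

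Among the releasing hormones, Ghrh, which drives growth hormone, was between 0.101 and 8.73 CPM in the lean and was 11.1, 10.2 and 0.998 CPM in the saline libraries (log2 fold change -1.25 ± 0.91). Trh, of the thyroid axis, was between 1.69 and 161 CPM against 45.3 to 167 CPM (-0.22 ± 0.92). Crh, of the stress axis, was between 2.43 and 6.44 CPM against 1.68 to 8.50 CPM (0.12 ± 0.61). Gnrh1 and Kiss1, of the reproductive axis, had log2 fold changes of -0.57 ± 0.90 and -1.05 ± 1.10, where Kiss1 shares its strand with the overlapping gene Golt1a. Sst, which is made in many brain regions, was steadier at 77.1 to 254 CPM against 107 to 197 CPM (0.13 ± 0.45). In the list of 30 other hypothalamic neuropeptides, 11 had a positive and 19 a negative log2 fold change (median -0.20). The member of that list with an unadjusted p under 0.05 was Vgf, a granin-like secretory protein, at 97.9 to 149 CPM against 129 to 199 CPM (-0.47 ± 0.22).

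Receptors through which hormones act on the hypothalamus showed no called difference in either direction. Of 23 receptor genes, 11 had a positive and 12 a negative log2 fold change (median -0.04), and 2, both lower in lean, had an unadjusted p under 0.05 beside 1.07% of all genes. Prlr, the prolactin receptor, was 2.72, 0.169, 1.76, 0.970, 0.757 and 0.521 CPM in Lean 1 to Lean 6 and 3.08, 3.70 and 2.66 CPM in Saline 1 to Saline 3, so that 1 lean animal overlapped the saline range (log2 fold change -1.45 ± 0.60). Glp1r, the receptor for the gut hormone GLP-1, was 2.36, 0.540, 3.31, 2.65, 3.09 and 3.28 CPM against 9.07, 8.92 and 2.59 CPM (-1.43 ± 0.66), with the low saline value again in Saline 3. Lepr, the leptin receptor, was 9.03, 7.90, 9.17, 8.44, 3.66 and 3.86 CPM against 7.80, 5.29 and 3.10 CPM, with a log2 fold change of 0.37 ± 0.64 and an interval of -0.93 to 1.68. It shares its strand with the overlapping gene Leprot, between which reads could be split. Insr, the insulin receptor, was between 5.97 and 27.9 CPM against 19.7 to 23.2 CPM (-0.17 ± 0.43).

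The melanocortin receptors, which receive the POMC and AgRP signals, were low but measurable in nearly every animal. Mc4r was between 3.31 and 8.32 CPM in the lean and between 2.86 and 7.50 CPM in the saline libraries (log2 fold change 0.43 ± 0.55), and Mc3r was between 0 and 5.15 against 1.92 to 7.23 CPM (-1.30 ± 0.89). Ghsr, the ghrelin receptor, was between 0.675 and 9.63 against 1.59 to 11.4 CPM (-0.98 ± 0.69). For these receptors as for the peptides the interval of the fold change was wide, and of 23 genes in the panel of feeding, endocrine and glial genes it lay between -1 and 1 for 1, the microglial gene Aif1 (0.08 ± 0.32). A doubling and a halving were therefore both outside the interval for 1 gene of the panel.

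**Figure D4:**
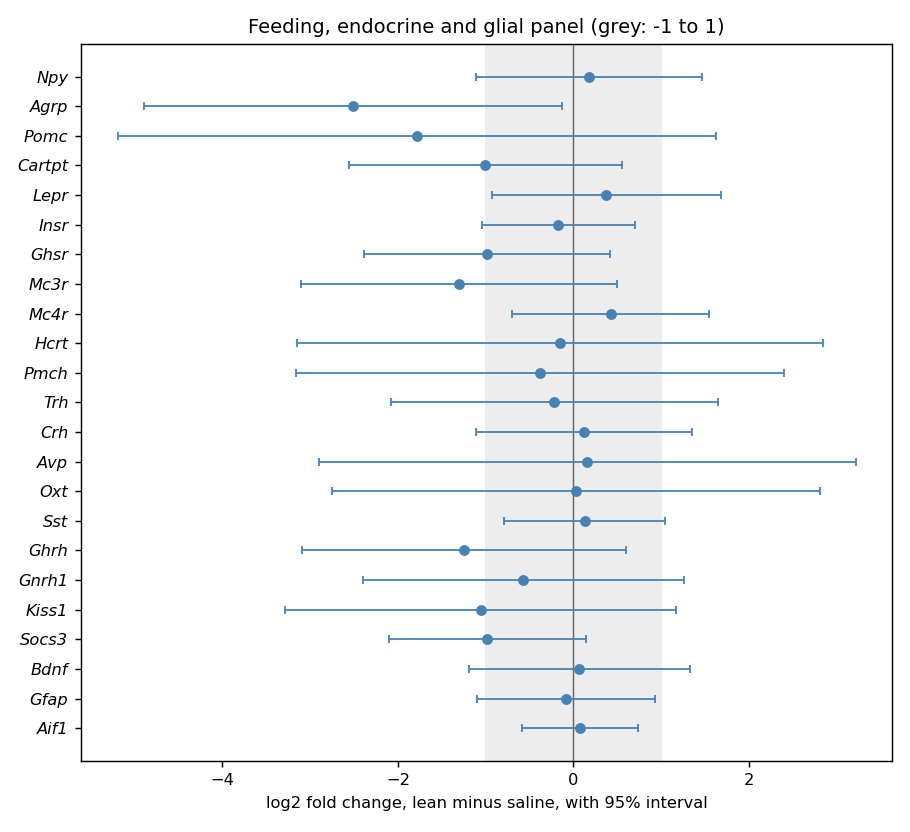
Log2 fold change of lean against saline (points) with its 95% interval (bars) for 23 feeding, endocrine and glial genes, with the band from -1 to 1 in grey. The interval of Agrp (-4.89 to -0.13) is the one that does not reach 0, and that of Aif1 is the one that lies wholly in the band.

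Genes downstream of leptin and insulin were measured more tightly than the peptides. Of 26 listed genes, 11 had a positive and 15 a negative log2 fold change (median -0.01), 0 had an unadjusted p under 0.05, and the interval lay between -1 and 1 for 19. Socs3, the feedback inhibitor induced by leptin, was 5.08, 2.33, 3.10, 4.12, 1.20 and 4.04 CPM in Lean 1 to Lean 6 and 11.5, 6.13 and 1.996 CPM in Saline 1 to Saline 3 (-0.98 ± 0.55). Saline 1 and Saline 2 were above all lean animals, and Saline 3 was below 5 of 6. Stat3, the factor that leptin activates, was between 49.8 and 80.8 CPM in the lean and between 45.0 and 107 CPM in the saline libraries (-0.41 ± 0.26). Pik3ca, a catalytic subunit of PI3-kinase, was between 51.8 and 75.6 against 49.4 to 60.9 CPM (0.24 ± 0.13).

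Lists for the gliosis and inflammation that are known to accompany a high-fat diet had medians close to 0. Of 18 microglial genes, 16 had a negative log2 fold change, but the median was -0.15, the interval lay between -1 and 1 for 16 of the 18, and 0 had an unadjusted p under 0.05. The median was 0.07 without Lean 2, Lean 5 and Saline 3, and 0.0019 with all 65 libraries, so its sign was not stable. Their summed level was between 707 and 959 CPM in the lean and between 804 and 1048 CPM in the saline libraries. Of 22 genes of inflammation and NF-kB signalling, 15 had a positive log2 fold change (median 0.11). The chemokine gene Ccl2 was the member with an unadjusted p under 0.05, at 0.0882 to 0.863 CPM in the lean and 0 to 0.190 CPM in the saline libraries, a level of few reads. Of 16 astrocyte genes, 12 had a negative log2 fold change (median -0.13), and Gfap, the intermediate filament that marks reactive astrocytes, was between 352 and 1432 CPM against 359.9 to 1632 CPM (-0.09 ± 0.50). The astrocyte gene with an unadjusted p under 0.05 was Serpina3n, a protease inhibitor of reactive astrocytes, at 0 to 0.232 CPM in the lean libraries and 3.08, 0.0324 and 0.0739 CPM in the saline libraries (-3.19 ± 1.41), so that Saline 1 alone lay above the lean range. Of 10 tanycyte genes 6 had a negative value (median -0.07), and of 16 myelin genes 14 had a negative value (median -0.17, with 14 intervals between -1 and 1).

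Lists of lipid synthesis, ribosomal proteins and oxidative phosphorylation were tightly bounded. Of 28 genes of cholesterol and fatty acid synthesis, 15 had a positive log2 fold change (median 0.02), 0 had an unadjusted p under 0.05, and 26 intervals lay between -1 and 1. Of 76 ribosomal protein genes 40 had a positive value, with a median under 0.01 and all 76 intervals between -1 and 1. Of 61 nuclear genes of oxidative phosphorylation, 60 had a positive value, but the median was 0.15, 0 had an unadjusted p under 0.05, and 60 intervals lay between -1 and 1. That median was 0.07 without Lean 6, 0.09 without Lean 2, 0.26 without Saline 3, 0.05 with a replicate block and 0.03 with all 65 libraries. For sham minus saline the median of the same list was 0.43, with 21 of 61 genes at an unadjusted p under 0.05 beside 11.8% of all genes.

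Of 25 genes of fatty acid oxidation and lipid handling, 3 had an unadjusted p under 0.05 beside 2.22% of all genes. Bdh1, which interconverts ketone bodies, was between 38.8 and 52.3 CPM in the lean and between 33.0 and 36.1 CPM in the saline libraries (log2 fold change 0.32 ± 0.15). Acot1, which releases fatty acids from coenzyme A, was between 2.36 and 6.77 against 6.21 to 8.37 CPM (-0.67 ± 0.27), and Slc27a1, a fatty acid transporter, was between 87.3 and 126 against 117 to 127 CPM (-0.23 ± 0.09). Hadha, of mitochondrial beta-oxidation, was between 150.3 and 167 CPM against 177 to 191 CPM without overlap (-0.17 ± 0.09), with an unadjusted p of 0.0677 by edgeR's quasi-likelihood test. All 4 differences were under 1 on the log2 scale, and Bdh1 and Hadha, whose groups did not overlap, lay on opposite sides.

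Other regulatory lists held single members with an unadjusted p under 0.05. Per1, a clock gene that glucocorticoids also induce, was between 59.8 and 130 CPM in the lean and between 55.8 and 66.6 CPM in the saline libraries (log2 fold change 0.53 ± 0.25). It was the member of the 17 glucocorticoid-responsive genes (median 0.32) and of the 17 clock genes (median 0.19) with such a p. Atf3, a stress-induced factor that is itself rapidly induced, was between 0.882 and 14.4 CPM against 0.370 to 2.73 CPM (2.20 ± 0.79) among 15 genes of endoplasmic reticulum stress, whose median was -0.13. Xbp1, a regulator of that response, was between 84.3 and 106.4 CPM against 112 to 116 CPM, without overlap (-0.22 ± 0.18). Maob, which degrades monoamines, was between 52.5 and 124 against 80.5 to 204 CPM (-0.78 ± 0.35), and Gabrd, a GABA receptor subunit, was between 12.6 and 102 against 4.19 to 14.5 CPM (2.21 ± 1.07). Over all 35 lists, 28 of 653 genes (4.29%) had an unadjusted p under 0.05, in 16 lists, beside 2.22% of all genes, and 0 were called in any list. Of the 28, 11 were immediate early genes, and without that list the count was 17 of 636 (2.67%).

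**Figure D5:**
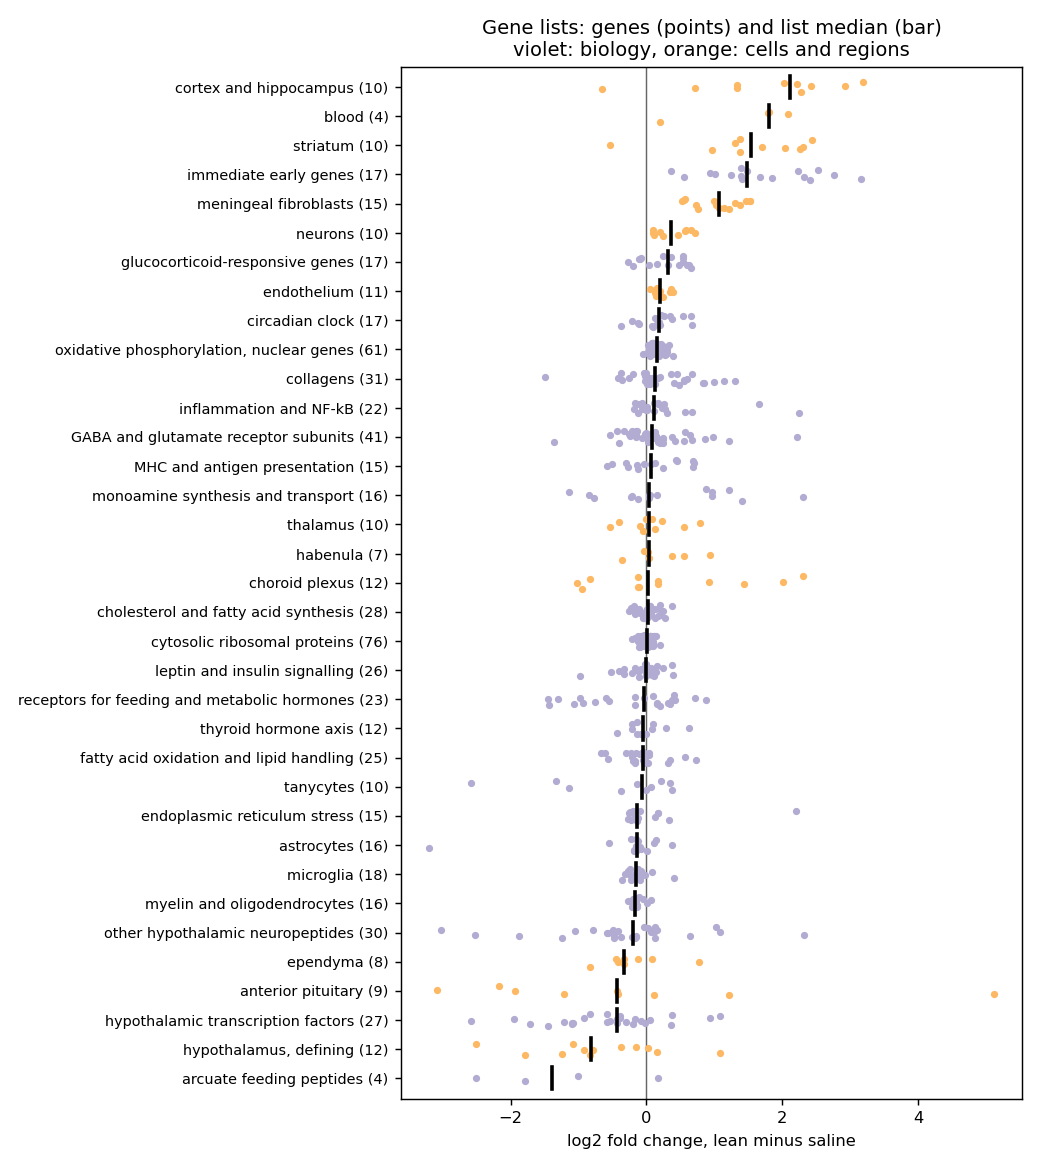
Log2 fold change of lean against saline for the genes (points) of 35 lists, with the list median (black bar) and the number of genes tested in parentheses, in violet for biology and in orange for cells and regions. Immediate early genes (median 1.49) and markers of cortex, blood, striatum and meninges lie to the right, and arcuate peptides (median -1.39) and genes defining the hypothalamus lie to the left.

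Markers of neighbouring tissue moved between animals, and their part in the differences above was not tested. Of 10 striatal genes 9 had a positive log2 fold change (median 1.54), with 2 at an unadjusted p under 0.05, beside 2.22% of all genes, and 0 called. The count of 2 was 0 without Lean 2, Lean 4, Saline 1 or Saline 2, 1 without Lean 3, and 0 without Lean 2, Lean 5 and Saline 3 together, but 5 by DESeq2, 8 in the fit of 9 libraries and 10 by limma-voom. The number of all genes with such a p moved as well. It was 483 in the main fit, 647 by DESeq2, 701 in the fit of 9 libraries and 3508 by limma-voom. Syndig1l, a striatal synaptic protein, was between 35.2 and 120 CPM in the lean and between 9.77 and 29.2 CPM in the saline libraries. Of 10 genes of cortex and hippocampus 9 had a positive value (median 2.12), and Slc17a7, the glutamate transporter of cortical neurons, was 607 CPM in Lean 2 against at most 105.7 CPM in the other lean libraries. The median of that list was 0.59 without Lean 2, -0.13 without Lean 2, Lean 5 and Saline 3, and -0.83 in the fit of all 65 libraries. All 10 general neuronal genes had a positive value (median 0.36), and the median was 0.14 without Lean 2 and 0.07 with all 65 libraries.

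All 15 entries of the 14 genes of meningeal fibroblasts had a positive log2 fold change (median 1.07), with 0 at an unadjusted p under 0.05. They summed to 1437, 1027, 640, 997, 131 and 1502 CPM in Lean 1 to Lean 6 and to 1042, 139 and 126 CPM in Saline 1 to Saline 3, so that 5 lean animals and 1 saline animal were high. Without Saline 1 the median was 3.02, and 11 entries then had an unadjusted p under 0.05, beside 405 of all genes in that fit. The 10 genes of the anterior pituitary summed to 331 CPM in Lean 6 and 514 and 119 CPM in Saline 1 and Saline 2, and to 16.4 CPM or less in the other 6 animals. These 3 animals were also the 3 highest in Agrp, Pomc and Cartpt, and with the pituitary, choroid plexus and meninges scores as covariates the log2 fold change of Agrp was -1.39. Whether the Pomc reads of these animals came from arcuate neurons or from pituitary tissue was not tested. The 4 blood genes summed to 82.3 CPM in Lean 6 and 28.2 CPM in Lean 1, and to between 4.20 and 11.1 CPM elsewhere.

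The sham-operated rats show how far 2 obese control groups of the same period differed. Of the 21775 genes, 0 (0%) were called, and 2576 (11.8%) had an unadjusted p under 0.05, with a smallest adjusted p of 0.358 by edgeR's quasi-likelihood test. Lean against sham had 0 genes called and 2848 (13.1%) with an unadjusted p under 0.05, with a smallest adjusted p of 0.146. The 3 contrasts share animals, so their values are only set side by side, and genes picked for extreme values in the saline libraries tend to lie on the same side in both contrasts.

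Several genes at the extremes of lean against saline had sham values on the lean side of saline. Apold1 was 18.8, 40.0, 15.6, 44.0 and 74.9 CPM in the 5 sham libraries, all above the 3 saline values, with a log2 fold change of sham minus saline of 2.18. The immediate early genes summed to between 359 and 967 CPM in the sham libraries, above the 223 to 274 CPM of the saline libraries. Their median log2 fold change of sham minus saline was 0.88, with 4 of 17 at an unadjusted p under 0.05 beside the 11.8% of all genes. Zfp512 was between 54.6 and 63.2 CPM and Prlr between 0.393 and 0.834 CPM in the sham libraries, both below all saline values, with log2 fold changes of sham minus saline of -0.28 and -2.57. Grhl2 and Spint1 instead had sham levels near saline, with log2 fold changes of -0.27 and -0.17, and Pgm1, at 83.3 to 101 CPM, lay above all lean values and overlapped saline. The meningeal genes summed to between 92.6 and 159 CPM in all 5 sham libraries, at the level of Saline 2, Saline 3 and Lean 5.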

How the data were processed

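Poly-A RNA of the hypothalamus was sequenced from 1 stranded library per rat. Per the study's methods and the submitters' processing notes, the authors trimmed reads with cutadapt (1.16 in the notes, which may not hold for every batch, since the methods name several versions), mapped them with STAR 2.7.2b to Rnor_6.0 and counted them on exons of RefSeq genes with featureCounts 1.6.4. Counting was strand-specific, and reads with several places or on several genes were shared as fractions. What the authors deposited are thus estimated counts per gene, made by featureCounts and not normalized. Among values above 0, 30.3% had a fraction at a tolerance of 1e-06. All were rounded to whole numbers here. Total counts in the series ran from 20041010 to 36539941, of 38513 genes. At such depth low genes are the least precise.

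Group and batch were taken from the labels. The model was fitted on all 37 libraries of batch A, so that the other groups steadied the estimate of the spread, with edgeR 4.0.16 in R 4.3.3 (low genes removed by filterByExpr at 10 counts and 15 in total, TMM scaling, robust quasi-likelihood test, Benjamini-Hochberg adjustment over all genes tested). Calls needed an adjusted p under 0.05 and a log2 fold change beyond 1 in either direction. The contrasts were lean against saline, sham against saline and lean against sham. p-values measure the spread between animals. Levels are TMM-scaled CPM and do not account for gene length, so they were compared within a gene only. Distances between libraries used log2 of CPM plus 1. Error values are SE for fold changes, with intervals at 95%. DESeq2 1.42.0, limma-voom of limma 3.58.1, other filters and scaling, 9 libraries alone, all 65 libraries with a batch term, marker scores as covariates, a replicate block and left-out libraries were alternatives. DESeq2 was run without shrinkage of fold changes, whereas the study set its threshold on shrunken ones. The model was also run on simulated data with known changes, whose outcome is not given here.

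The members and gene lists were chosen with earlier results of these data known. Genes named were the 12 with the smallest p in each direction (unnamed loci left out), a panel of 23 genes, and in each list the 4 with the smallest p and the most abundant, except for some genes not reported here. Lists were written by symbol from general knowledge and described by counts and medians, with no set test. Nms, 15 subunits of ATP synthase under newer names, Hba-a2, Hbb-bs, Slco1a4 and Tac2 were not matched in the table. Promoters and motifs came from RefSeq (GRCr8).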

Additional observations from a re-analysis of the deposited data

Results flagged for a closer look

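In 28 of 94 groups of 6 lean values examined, the highest or lowest animal lay apart from the other 5 by a gap of more than 0.625 of the group's range (Dixon's criterion). The criterion singles out about 1 in 20 groups by chance where values are normally distributed and groups are not picked by their values. Many of these genes were picked by their p or after their values were seen, and some lay near 0 CPM. The 28 of 94 can therefore not be set against that share. The genes of a list are also not independent of each other. Lean 2 was the animal in 17 of the 28, Lean 6 in 10 and Lean 5 in 1.

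Lean 2 was highest in the immediate early genes, with 186 CPM of Egr1, 213 of Nr4a1, 189 of Dusp1, 48.8 of Egr2, 101 of Fos, 269 of Junb, 80.7 of Egr4, 128 of Egr3, 411 of Arc and 59.8 of Npas4. The list summed to 2079.8 CPM in Lean 2 and to between 275 and 624 CPM in the other 5 lean animals. Apold1 (128 CPM) and Inhba (7.23 CPM) stood apart in the same animal. Lean 2 was also highest in the cortical gene Slc17a7 (607 CPM) and in the summed cortex and hippocampus genes (1229 CPM against 97.2 to 235 CPM). It was lowest in Glp1r (0.540 CPM against 2.36 to 3.31 CPM) and in Hadha (150.3 CPM against 163 to 167 CPM).

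Lean 6 was highest in genes of the arcuate region, with 3.58 CPM of Agrp, 2.48 of Galp, 3.92 of Rax, 9.77 of Tbx3 and 3.55 of Bsx. In the other 5 lean animals Agrp was between 0.379 and 0.863 CPM. The same animal had the highest sums of anterior pituitary genes (331 CPM against 4.09 to 16.4 CPM) and of blood genes (82.3 CPM against 4.20 to 28.2 CPM), with 76.8 CPM of Hbb. It was also highest in the low genes Tspan10 (1.53 CPM) and Apoa4 (0.521 CPM). Lean 5 was highest in Olr1193, at 0.0947 CPM.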

How the results depend on the processing

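The count of genes called in lean against saline was 0 and stayed 0 with RLE scaling, without a filter, with a minimum count of 50, with all 65 libraries and a batch term, with either set of marker scores as covariates, without each library in turn (range 0 to 0) and without Lean 2, Lean 5 and Saline 3 together. It was 1 by DESeq2 (Hoxd4, adjusted p = 0.0139), 1 in an edgeR fit of the 9 libraries alone, and 15 by limma-voom with sample quality weights, of which 13 were higher in lean, 4 had groups without overlap, and Vill (log2 fold change 3.33) and Grhl2 (-2.36) were named above. The weights ran from 0.261 for Lean 6 and 0.485 for Lean 2 to 3.50 for Saline 2. Genes with an unadjusted p under 0.05 numbered 483, and between 194 (without Saline 2) and 3508 (limma-voom) under the alternatives. They numbered 248 without Lean 2, 773 without Saline 3, 812 without Lean 6, 1055 without a filter, 1427 with pituitary, choroid plexus and meninges scores, 286 with hypothalamus, striatum and cortex scores and 306 without Lean 2, Lean 5 and Saline 3. For sham against saline, 15 genes were called by DESeq2 and 0 by edgeR, also with a replicate block and without each saline library in turn. The causes of these shifts were not tested.

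Replicate numbers are shared by Lean 1 to 3 and Saline 1 to 3. The deviations of same-numbered animals correlated at 0.255, -0.176 and -0.0928, and those of differently numbered animals at -0.551 to 0.482. No pairing was seen, but so few values cannot exclude it. With a replicate block, 0 genes were called and 567 had an unadjusted p under 0.05.

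Of 926 values of named genes under the alternatives, 862 kept their direction and their side of the threshold, 2 passed it (Vill and Grhl2 by limma-voom) and 62, over 15 genes, had the opposite sign. None of the 15 genes had an adjusted p under 0.05 in any of these fits. Hcrt and Pmch are members of the hypothalamus list, so the fit with that list's score adjusts each of them partly for itself. With hypothalamus, striatum and cortex scores the log2 fold change was -0.64 for Npy, 0.12 for Insr, 1.31 for Hcrt, 1.11 for Pmch, 0.29 for Trh, -0.18 for Crh, -0.23 for Sst, 0.33 for Kiss1 and 0.28 for Gfap. With pituitary, choroid plexus and meninges scores it was -0.32 for Lepr, -2.47 for Avp, -1.68 for Oxt and -0.26 for Aif1. With all 65 libraries it was -0.28 for Lepr, 0.0031 for Insr, 1.0003 for Hcrt, 0.60 for Pmch, -0.76 for Avp, -0.94 for Oxt and -0.41 for Bdnf. By limma-voom it was -0.20 for Npy, -1.20 for Avp, -1.90 for Oxt, -0.25 for Sst and -0.67 for Bdnf. With the replicate block it was -0.093 for Crh, -0.19 for Avp, -0.64 for Oxt, -0.022 for Bdnf and 0.080 for Gfap. Without Lean 2, Lean 5 and Saline 3 it was -0.45 for Npy, -0.34 for Sst, 0.064 for Gnrh1 and -0.38 for Bdnf. Without each library in turn it ran from -0.16 to 0.34 for Npy, -0.31 to 0.030 for Insr, -1.05 to 0.71 for Hcrt, -1.12 to 0.11 for Pmch, -0.58 to 0.24 for Trh, -0.26 to 1.15 for Crh, -0.66 to 0.75 for Avp, -0.56 to 0.58 for Oxt, -0.080 to 0.32 for Sst, -0.25 to 0.47 for Bdnf, -0.47 to 0.55 for Gfap and -0.078 to 0.17 for Aif1. Low counts limit the precision of genes under about 1 CPM. What limits the others, between the number of animals and the spread within groups, was not tested.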

Other observations

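The series holds 5 further saline libraries of batch B, which had no lean animals beside them. Their values are given on a scale set over all 65 libraries, without a test, since the experimental period cannot be told apart from other differences between the batches. The immediate early genes summed to between 294 and 1366 CPM with a median of 449 in saline batch B, against 220 to 266 CPM in saline batch A and 270.4 to 2065 CPM in the lean group. Apold1 was between 16.9 and 94.5 CPM in saline batch B, so that its range lay above saline batch A and within the lean range. Agrp was between 0.131 and 1.85 CPM and Pomc between 2.15 and 9.19 CPM in saline batch B, far below Saline 1 and Saline 2 of batch A. Grhl2 was between 0.0846 and 0.569 CPM and Prlr between 0.0889 and 1.05 CPM there, where Prlr lay below all of saline batch A and Grhl2 reached into its range. Vill, at 0.0889 to 1.34 CPM, took in all of saline batch A and reached the lowest lean value, and Zfp512, at 52.9 to 72.7 CPM, overlapped both groups.

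The gene called in the fit of the 9 libraries alone, LOC691566, was chosen after its values were seen. It is annotated as a pseudogene (Rnor_6.0, chr5:169333975-169334486, minus strand). Its log2 fold change in that fit was 4.53, with an adjusted p of 0.00404 by edgeR's quasi-likelihood test, while it was not called in the fit of the 37 libraries of batch A. On the scale of all 65 libraries, it was between 3.62 and 5.28 CPM in all 6 lean animals and between 0.0728 and 0.258 CPM in the 3 saline animals of batch A. Over the whole series its levels fell into 3 bands with gaps between them, with 34 libraries between 0.0728 and 0.804 CPM, 25 between 2.57 and 5.98 CPM and 6 between 8.31 and 11.7 CPM. All 5 sham animals of batch A were in the lowest band, and the 5 saline animals of batch B were in the lowest (3), the middle (1) and the highest (1). Its reads could be shared with a parent gene, which was not analysed here.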
